A study of Mus musculus with 14 samples.

Results

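Genes that mark type 17, gamma-delta and innate-like T cells were followed in sorted spleen T cells of leukemic mice with and without miR-142. They were 9 genes, chosen by symbol before any filter on expression, of the 24091 genes of the counts table: the transcription factors Zbtb16, Rora, Sox13, Maf and Ahr, the receptors Il18r1, Il23r and Ccr6, and the cytokine Il17a. 8 of the 9 had enough reads for the test across genes, which covered 12248 genes, and Il17a did not. Relative to the control mice, T cells without miR-142 had lower Zbtb16, Ccr6 and Il18r1 and higher Ahr and Maf. Rora, Sox13 and Il23r did not pass the test, and Il17a reads were few but were found in every mouse without miR-142.

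The comparison was between 8 Mir142+/+BCR-ABL mice, a model of chronic phase chronic myeloid leukemia (CP CML), and 6 Mir142-/-BCR-ABL mice, a model of blast crisis (BC CML), with 1 RNA-seq library per mouse. All mice were on the C57BL/6 background, of both sexes and 6 to 10 weeks old by the study's methods. Both groups carried the SCLtTA/BCR-ABL transgenes, in which a tetracycline-controlled transactivator under the SCL (Tal1) regulatory sequence, active in blood stem and progenitor cells, switches on the BCR-ABL oncogene. The gene was kept off with tetracycline and induced for 3 weeks by its withdrawal, so that no mouse of this comparison was free of leukemia. The Mir142 deletion was present in every cell of the BC CML mice and not in T cells alone. T cells were sorted from the spleen, 200000 per library, without a gate for type 17 or innate-like cells. The mice of each group carried their own name prefix in the column headers. What the prefix stands for is not given, and anything it marks cannot be told apart from genotype.

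Type 17 T cells secrete IL-17A and related cytokines and depend on nuclear receptors of the ROR family, with interleukin-23 sustaining them through IL23R. Several T cell types that act early and with few receptor specificities share much of this program: the IL-17-producing gamma-delta T cells, which use SOX13 and c-MAF in their development, and natural killer T (NKT) and mucosal-associated invariant T (MAIT) cells, which need PLZF, the product of Zbtb16. Some of the genes are not limited to these cells, since c-MAF also serves follicular helper T cells and IL18R1 is carried by effector CD8 T cells. In the spleen of mice all of these types are minor populations beside conventional CD4 and CD8 T cells. In a bulk library of sorted T cells, fewer cells of a type and less RNA per cell cannot be told apart.

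Depth was between 15703702 and 19914531 reads in CP CML and between 16145537 and 19399720 in BC CML. The transcript of the deleted gene, Mir142, had 302 to 650 reads in every CP CML library and 0 in every BC CML library. Levels are given as CPM, the reads of a gene scaled to the TMM-adjusted total of its library. The pan-T gene Cd3e did not pass the test (404 ± 25.6 CPM in CP CML and 410 ± 18.1 in BC CML, SD, n = 8 and 6, edgeR quasi-likelihood test, Benjamini-Hochberg adjusted p = 0.705), while Cd8a rose and Cd4 fell in BC CML by 0.87 and 0.73 on the log2 scale (adjusted p = 2.4e-08 and 5.0e-06). Among all tested genes 65.2% passed the test, 32.6% as higher and 32.7% as lower in BC CML, and 36.9% had no overlap between the mice of the groups, so that a call for a single gene was common in this comparison. One library stood apart for these genes. BC CML replicate 2 was the highest of the 6 BC CML mice in 6 of the 9 genes (Rora, Zbtb16, Sox13, Ahr, Il23r and Il17a), where it was highest in 17.4% of all tested genes, and the values that rest on it are given with and without it.

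The sequences of the deleted microRNA are shown because they allow its possible sites in these genes to be looked for. Mir142 gives rise to a mature strand from each arm of its hairpin, both read here from RefSeq on GRCm38.p6, miR-142a-3p at chr11:87756903-87756925 and miR-142a-5p at chr11:87756867-87756887, both on the plus strand. A microRNA pairs with its targets mainly through the seed, bases 2 to 8, given in capitals.
mmu-miR-142a-3p: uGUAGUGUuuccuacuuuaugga
mmu-miR-142a-5p: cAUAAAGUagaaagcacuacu
The matches looked for on the strand of the transcript were ACACTACA, ACACTAC and CACTACA for the 3p strand and ACTTTATA, ACTTTAT and CTTTATA for the 5p strand, where the 7-letter forms lie within the 8-letter one. Of the 9 genes, only Ahr held a match in its longest annotated 3′UTR (GENCODE vM21, mm10). It was an 8-letter match to the 5p seed at bases 1164 to 1171 of 2715, at chr12:35499518-35499525 on the minus strand, shown with its flanks and with the match in capitals.
Ahr site: ttgtgatattgACTTTATAaattccacttc
Among the 11509 tested genes with a 3′UTR, 12.1% held a match to the 3p seed and 23.5% to the 5p seed, and 9.4% of the 757 with a 3′UTR within 10% of the length of that of Ahr held the 8-letter 5p match. The other 3′UTRs were from 73 bases (Ccr6) to 9285 bases (Rora) long. The one of Rora had no match, while of 46 3′UTRs of like length 65.2% held one for the 3p and 76.1% for the 5p strand. A match is a string of letters in this window, and whether miR-142 acts on it was not tested.

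Zbtb16 (chr9:48654297-48836222, mm10, minus strand) encodes PLZF, the transcription factor that gives NKT, MAIT and other innate-like lymphocytes their ready effector state. It fell more than any other of the 9 genes. In CP CML the 8 mice had from 7.66 to 12.1 CPM, with a median of 8.74. In BC CML replicates 1 to 6 had 1.28, 4.24, 1.68, 1.57, 1.73 and 1.08 CPM. The groups did not overlap, and replicate 2 was the nearest of them to the CP CML range. The mean was 9.24 ± 1.58 CPM (SD, n = 8) in CP CML and 1.93 ± 1.16 (n = 6) in BC CML. This gave a log2 fold change of −2.28 with a standard error (SE) of 0.24 and a 95% interval from −2.78 to −1.77 (edgeR, adjusted p = 3.0e-07). Without replicate 2 the log2 fold change was −2.65. Of all tested genes 2.54% had a larger change in size, in either direction.

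Rora (chr9:68653786-69388246, plus strand) encodes RORα, a nuclear receptor shared by type 17 T cells and group 2 innate lymphoid cells. Its level was nearly equal in the groups, with 79.3 to 89.2 CPM (median 85.1) in CP CML and 84.2, 88.9, 81.0, 81.9, 82.2 and 77.2 CPM in BC CML replicates 1 to 6. The mice of the groups overlapped through almost their whole range. A log2 fold change of −0.03 was found with a 95% interval from −0.11 to 0.05 (edgeR, adjusted p = 0.538). Its relative Rorb had at most 2 reads in any library.

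Sox13 (chr1:133382300-133424212, minus strand) encodes a high-mobility-group factor of early gamma-delta T cells that favors their IL-17-producing branch. It was low in both groups, with 0.83 to 1.82 CPM (median 1.19) in CP CML and 1.66, 7.29, 1.10, 0.47, 1.41 and 1.90 CPM in BC CML replicates 1 to 6. Replicate 2 had 117 reads of Sox13, and the other BC CML mice lay on both sides of the CP CML range or within it. The log2 fold change was 0.89 with an SE of 0.46 and a 95% interval from −0.08 to 1.85, and did not pass the test (edgeR, adjusted p = 0.0985). Without replicate 2 it was 0.10 (adjusted p = 0.776), and without replicate 4, the lowest mouse, 1.10 (adjusted p = 0.0249), so the call turned on single mice.

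The SOX genes related to it moved with more even spread. Sox5 and Sox6, of the same SoxD group as Sox13, rose by 0.90 and 1.79 on the log2 scale (edgeR, adjusted p = 0.0017 and 9.9e-05). All 6 BC CML mice lay above the CP CML range for Sox6, although its level was only 0.29 ± 0.16 CPM in CP CML and 1.01 ± 0.28 in BC CML. Sox4, an upstream factor of IL-17-producing gamma-delta cells, rose by 0.47 (adjusted p = 0.0258), with overlap between the groups, and without BC CML replicate 6 it was 0.29 (adjusted p = 0.0905).

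Maf (chr8:115703253-115706894, minus strand) encodes c-MAF, which promotes IL-10, IL-21 and IL-4 in helper T cells and is needed for IL-17-producing gamma-delta cells. It rose by a modest and even amount. The CP CML mice had from 42.7 to 70.3 CPM with a median of 58.4, and BC CML replicates 1 to 6 had 88.9, 93.9, 74.1, 76.4, 105 and 75.4 CPM. All BC CML mice were above all CP CML mice, which held for 19.3% of all tested genes, and the highest was replicate 5. This came to a log2 fold change of 0.55 with an SE of 0.10 and a 95% interval from 0.32 to 0.77 (edgeR, adjusted p = 0.00028).

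Among cytokine genes known as targets of c-MAF, Il21, a cytokine of follicular helper and type 17 cells, rose by 0.81 (edgeR, adjusted p = 0.0117), with BC CML replicate 5 at 21.8 CPM, the next highest mouse at 8.66 and the CP CML mean at 5.53 ± 0.64. Without replicate 5 the Il21 change was 0.39 (adjusted p = 0.0106). Il4 did not pass (log2 fold change 0.04, adjusted p = 0.892). Il10, an inhibitory cytokine named here after its values had been seen, fell by 1.24 (adjusted p = 0.00048). Of the small MAF genes, Maff rose by 0.43 (adjusted p = 0.0181, but 0.0552 without BC CML replicate 1 and 0.0537 without replicate 4) and Mafg by 0.63 (adjusted p = 2.9e-07), and Mafk fell by 0.16 (adjusted p = 0.0149).

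Ahr (chr12:35497979-35534989, minus strand) encodes the aryl hydrocarbon receptor, a ligand-activated factor that type 17 cells need to make IL-22 and that is high in IL-17-producing gamma-delta cells. It had the largest rise of the 8 tested genes. The CP CML mice had from 9.65 to 15.8 CPM with a median of 11.9, and BC CML replicates 1 to 6 had 35.5, 47.3, 32, 37.7, 36.4 and 31.1 CPM. The lowest BC CML mouse was well above the highest CP CML mouse, and replicate 2 was again the highest. The mean was 12.4 ± 2.19 CPM in CP CML and 36.7 ± 5.81 in BC CML, a ratio of means of 2.96. On the log2 scale the change was 1.56 with an SE of 0.11 and a 95% interval from 1.32 to 1.80 (edgeR, adjusted p = 2.8e-09), and 1.48 without replicate 2. Of all tested genes 6.23% had a larger change in size.

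Of 5 target genes of AHR, Tiparp and Nqo1 had enough reads for the test, and neither passed. Tiparp was at 37.9 ± 4.51 CPM in CP CML and 40.7 ± 4.02 in BC CML (log2 fold change 0.10, edgeR, adjusted p = 0.254), and Nqo1 had a log2 fold change of 0.03 (adjusted p = 0.915). The others, Cyp1a1, Cyp1b1 and Ahrr, had at most 12 reads in any library and were not tested. Il22 also had too few reads for the test, with 0.10 ± 0.10 CPM in CP CML and 0.42 ± 0.50 in BC CML, where replicate 5 had 1.41 CPM and replicate 2, the mouse with the most Ahr, 0.06.

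**Figure D1:**
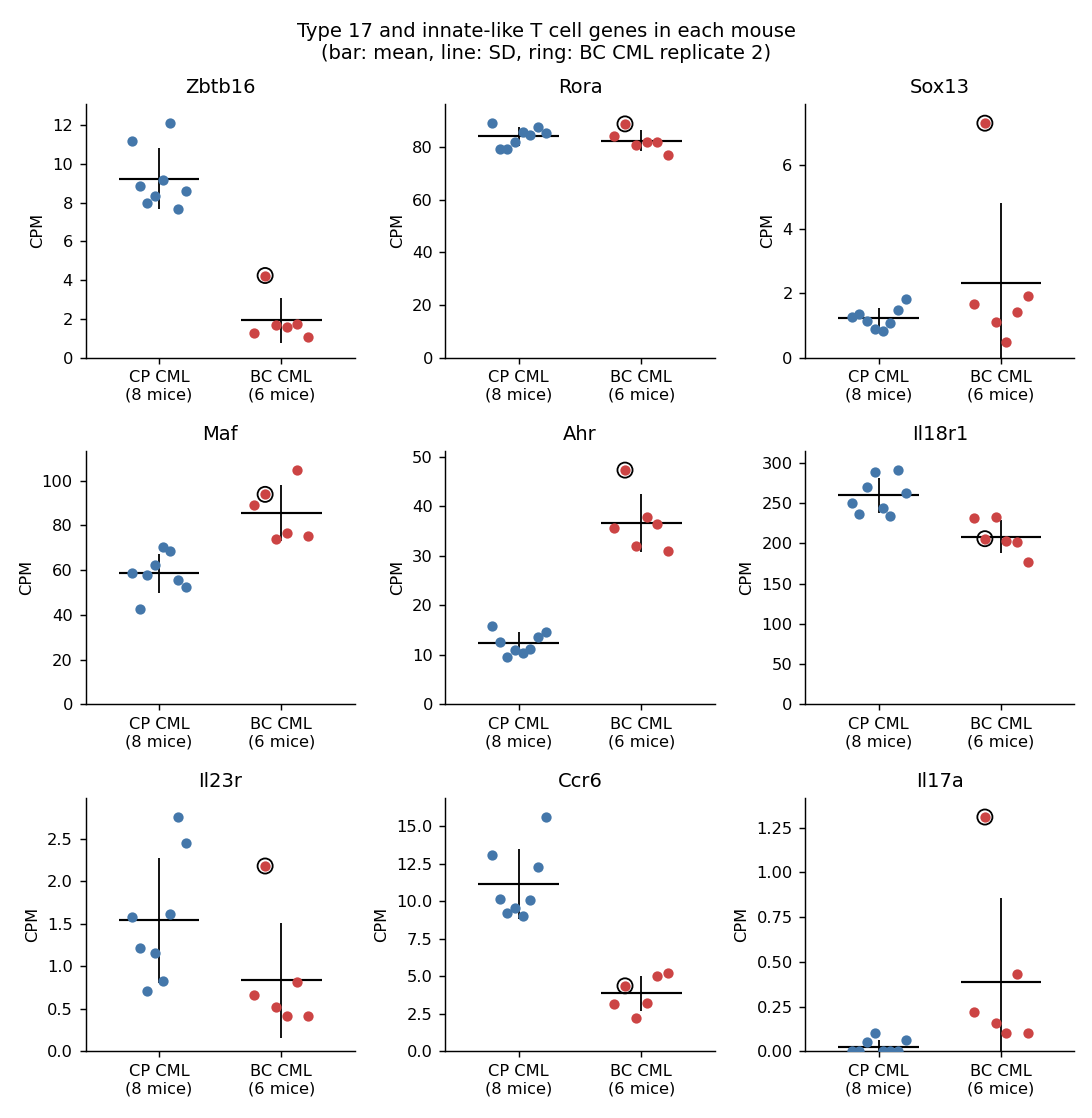
Level of each of the 9 genes in every mouse, in CPM on linear axes that start at 0, with CP CML (8 mice) on the left and BC CML (6 mice) on the right. Points are mice, bars are group means, lines are the SD (cut at 0 where it would pass below), and the ring marks BC CML replicate 2. The groups are apart for Zbtb16, Maf, Ahr, Il18r1 and Ccr6, and the ringed mouse is far above the other BC CML mice for Sox13, Il23r and Il17a.

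Il18r1 (chr1:40465552-40500854, plus strand) encodes the ligand-binding chain of the interleukin-18 receptor, which innate-like and effector T cells use to respond to IL-18 without antigen. It had the highest level per length of the 9 genes and fell by a small amount. The CP CML mice had from 234 to 291 CPM with a median of 256, and BC CML replicates 1 to 6 had 231, 206, 232, 203, 201 and 177 CPM. The gap between the groups was narrow, since the highest BC CML mouse was just below the lowest CP CML mouse. Its log2 fold change was −0.32 with an SE of 0.07 and a 95% interval from −0.45 to −0.18 (edgeR, adjusted p = 0.00038). Il18rap, the signalling partner chain, fell by 0.48 (adjusted p = 0.0012) with overlap between the groups. Il18bp, which encodes the secreted protein that neutralizes IL-18, rose by 1.70, from 6.60 ± 1.40 to 21.4 ± 4.34 CPM (adjusted p = 2.4e-08).

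Il23r (chr6:67422932-67491855, minus strand) encodes the specific chain of the interleukin-23 receptor, which maintains type 17 and IL-17-producing gamma-delta cells. It was low in both groups, with 0.71 to 2.76 CPM (median 1.40) in CP CML and 0.66, 2.18, 0.52, 0.42, 0.81 and 0.41 CPM in BC CML replicates 1 to 6. BC CML replicate 2 lay among the upper CP CML mice, and the other 5 BC CML mice below all but the lowest CP CML mouse. With all mice the log2 fold change was −0.90 with an SE of 0.40 and a 95% interval from −1.74 to −0.06, and the adjusted p of 0.0553 (edgeR) did not pass the threshold. Without replicate 2 the log2 fold change was −1.43 (adjusted p = 0.0017), and it passed as well when CP CML replicate 3 or 5 was left out (adjusted p = 0.0325 and 0.0395). The chain that IL23R pairs with, Il12rb1, which also serves the interleukin-12 receptor, moved the other way, from 30.1 ± 3.65 to 63.7 ± 8.52 CPM (log2 fold change 1.08, adjusted p = 1.6e-08), and Il12rb2, the second chain of the interleukin-12 receptor, rose by 2.46 (adjusted p = 1.2e-12).

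Ccr6 (chr17:8236043-8257129, plus strand) encodes the receptor for CCL20, carried by type 17 cells, by IL-17-producing gamma-delta cells and by B cells. It fell in every BC CML mouse. The CP CML mice had from 9.04 to 15.6 CPM with a median of 10.1, and BC CML replicates 1 to 6 had 3.16, 4.36, 2.26, 3.24, 5.04 and 5.19 CPM. All 6 BC CML mice lay below the CP CML range, which held for 17.6% of all tested genes. The log2 fold change was −1.52 with an SE of 0.18 and a 95% interval from −1.90 to −1.14 (edgeR, adjusted p = 1.1e-06), and −1.55 without replicate 2. The summed level of 11 B cell markers was higher in BC CML (136 to 675 CPM) than in CP CML (73.3 to 221 CPM), with overlap between the groups. CP CML replicates 1 and 8 and BC CML replicate 6 had the highest B cell sums of their groups, and were also the highest 2 CP CML mice and the highest BC CML mouse for Ccr6. In BC CML replicate 3 was the lowest mouse for both, while in CP CML replicate 5 had the third highest B cell sum and the lowest Ccr6. The part of B cell RNA in the Ccr6 level was not tested. Ccr7, the lymph node homing receptor of naive T cells, fell by 1.05 (adjusted p = 1.8e-07).

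Il17a (chr1:20730905-20734496, plus strand) encodes the defining cytokine of the type 17 program and was barely detected in these unstimulated cells. CP CML replicates 1 to 8 had 0, 0, 1, 2, 0, 0, 0 and 1 reads, where a count of 0 allows up to 3 reads, and BC CML replicates 1 to 6 had 4, 21, 3, 2, 8 and 2 reads. Reads were found in 3 of 8 CP CML mice and in 6 of 6 BC CML mice, with 4 and 40 reads in all. The lowest BC CML mouse had 0.103 CPM and the highest CP CML mouse 0.10, each from 2 reads, so at this depth the groups were not separated mouse by mouse. The difference of the means was 0.361 CPM (exact two-sided permutation test, p = 0.000333, the smallest that the 3003 splits of the mice can give, n = 8 and 6). Without BC CML replicate 2 the difference was 0.177 CPM (exact permutation p = 0.000777, the smallest that 1287 splits can give). A fold change was not drawn from so few reads. Il17f, the neighbouring and related cytokine, had at most 10 reads in any library and about equal levels, 0.22 ± 0.13 CPM in CP CML and 0.24 ± 0.17 in BC CML.

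**Figure D2:**
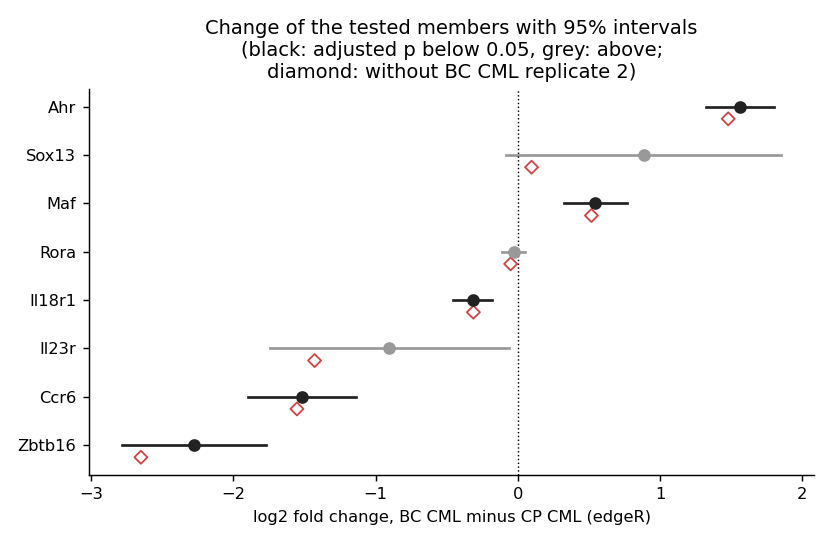
Log2 fold change of BC CML against CP CML for the 8 tested genes (horizontal axis), with the 95% interval as a line. Black marks genes with an adjusted p below 0.05 and grey the others, and the diamond gives the value without BC CML replicate 2. Ahr and Maf lie above 0 and Il18r1, Ccr6 and Zbtb16 below, while the diamond moves far from the point for Sox13 (0.89 to 0.10) and Il23r (−0.90 to −1.43).

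Over the 8 tested genes, 2 rose and 3 fell, 62.5% in all, where 65.2% of all tested genes passed. Their median log2 fold change was −0.17 and that of all tested genes −0.01. The 9 genes thus gave no common direction. Of the transcription factors 2 of 5 rose and 1 of 5 fell, and of the receptors 2 of 3 fell and none rose.

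Between genes, levels were compared per length, as CPM per kilobase of gene model (RPKM). In CP CML the order from the highest was Il18r1 (54.0 ± 4.60 RPKM), Maf (16.1 ± 2.42), Rora (6.80 ± 0.29), Ccr6 (5.36 ± 1.12), Ahr (2.26 ± 0.40), Zbtb16 (1.6 ± 0.27), Il23r (0.62 ± 0.30), Sox13 (0.34 ± 0.09) and Il17a (0.02 ± 0.03). Neighbours whose mean ± SD ranges overlapped were Ahr with Zbtb16, and Il23r with Sox13. In BC CML Il18r1 (43.4 ± 4.36 RPKM) and Maf (23.5 ± 3.40) remained on top. Ahr (6.69 ± 1.06) and Rora (6.67 ± 0.31) were then at the same level, and Ccr6 followed at 1.87 ± 0.56, with an upper Sox13 range that just reached its lower one. The last places were not separable by their spread, with Sox13 at 0.65 ± 0.70, Il23r at 0.34 ± 0.27, Zbtb16 at 0.33 ± 0.20 and Il17a at 0.33 ± 0.40. Ahr and Zbtb16 were at ranks 5 and 6 in CP CML and at ranks 3 and 8 in BC CML.

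BC CML replicate 2 was compared with the other BC CML mice for these genes and for a few related ones, of which Blk, a kinase of IL-17-producing gamma-delta cells and of B cells, was added after its values had been seen. It was the highest mouse by a wide margin for Il17a (1.31 CPM, next 0.433), Sox13 (7.29, next 1.90), Il23r (2.18, next 0.812), Zbtb16 (4.24, next 1.73) and Cd163l1 (122, next 38.4), a scavenger receptor of IL-17-producing gamma-delta cells. For Blk it had 18.0 CPM where the next mouse had 15.0. It was near the middle of its group for Il18r1 and for 5830411N06Rik, a gene of the same receptor family as Cd163l1. The same library had the lowest summed level of naive T cell genes (3517 CPM, others 4053 to 4913) and the highest of macrophage (1166 CPM, next 1147) and dendritic cell genes (146 CPM, others 56.0 to 106). The dendritic cell sum leans on Itgax, the most abundant tested gene of that list in the other BC CML mice (mean 53.6 CPM, next Bst2 at 29.2). The log2 fold change of Itgax between the groups was 2.74 with all mice and 2.51 without replicate 2. Replicate 2 also had the most Ncr1, a defining gene of natural killer (NK) cells (22.1 CPM, next 10.8). Its summed NK list was within the range of the other mice, but that list includes Il7r, which is also in the naive T cell list. Its B cell sum was the second highest, and its T cell identity sum was within the range of the others. The part of cell composition in these values was not tested.

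**Figure D3:**
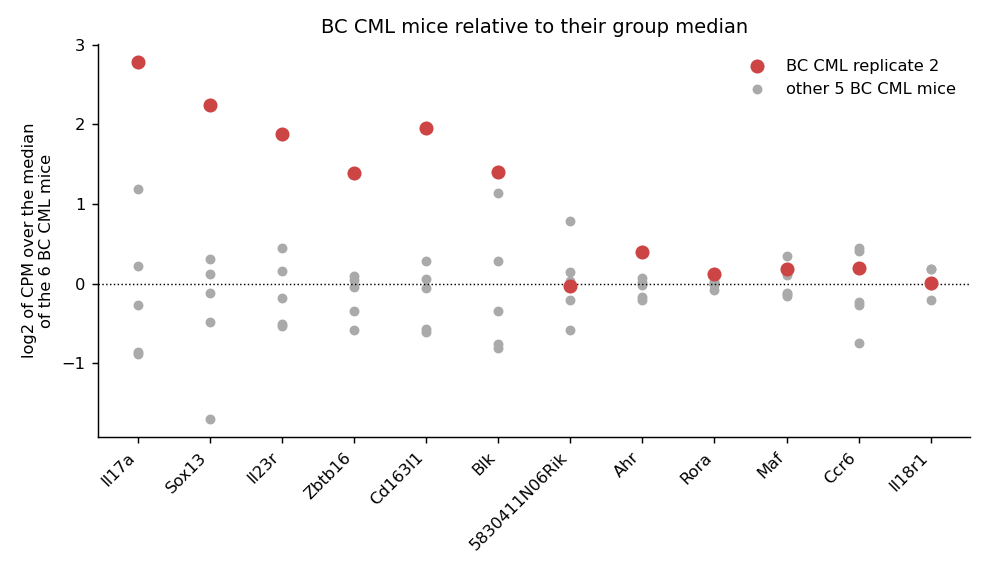
Each of the 6 BC CML mice relative to the median of its group, as log2 of CPM over the median (vertical axis), for the 9 genes and 3 related genes. The red point is replicate 2 and grey points are the other 5 mice. Replicate 2 is above all other BC CML mice from Il17a to Blk, near them for Ahr and Rora, and within their range for 5830411N06Rik, Maf, Ccr6 and Il18r1.

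To see how the rest of these programs behaved, fixed lists of other genes were read from the same fit. Of 14 type 17 cytokine and effector genes, 11 were tested, 8 rose and 2 fell, with a median log2 fold change of 1.11. For comparison, 32.6% of all tested genes were called higher and 32.7% lower, with a median of −0.01. The 4 with the lowest p-values were Il17ra, the shared IL-17 receptor chain, which fell by 0.80 (382 ± 13.7 to 219 ± 10.3 CPM, edgeR, adjusted p = 5.0e-12), Il12rb1, described above, Aqp3, a glycerol channel, which fell by 1.76 (adjusted p = 4.7e-08), and Podnl1, which rose by 1.11 (adjusted p = 2.3e-07). Il17ra and Aqp3 were the members that fell. The summed level of the 14 genes, of which Il17ra was the most abundant, was lower in every BC CML mouse (422 to 465 CPM) than in every CP CML mouse (481 to 525 CPM).

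Of 17 type 17 transcription factor and signalling genes, 16 were tested, 7 rose and 7 fell (all tested genes, 32.6% and 32.7%), with a median of −0.02. Foxp3, the factor of regulatory T cells, fell by 1.73 (94.2 ± 8.14 to 28.5 ± 4.32 CPM, edgeR, adjusted p = 1.4e-11) and Il6ra, the interleukin-6 receptor chain that starts type 17 differentiation, by 1.55 (202 ± 14.4 to 68.9 ± 10.4 CPM, adjusted p = 5.0e-11). Bhlhe40, a factor of cytokine-producing effector cells, rose by 1.83 (24.9 ± 2.38 to 88.5 ± 20.9 CPM, adjusted p = 8.6e-09), and Batf, a partner of IRF4 in early type 17 cells, fell by 0.61 (adjusted p = 2.1e-07).

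Of 20 gamma-delta T cell genes, the 12 that belong to the receptor loci themselves were not analysed here. All other 8 were tested, and 6 rose and 1 fell (all tested genes, 32.6% and 32.7%), with a median of 1.65. Tmem176b and Tmem176a, neighbouring membrane protein genes that are high in type 17 cells and also in myeloid cells, rose most, by 4.08 and 4.12 (edgeR, adjusted p = 2.3e-17 and 4.0e-15), Tmem176b from 8.21 ± 0.90 to 139 ± 12.4 CPM. 5830411N06Rik rose by 3.36, from 12.4 ± 1.49 to 128 ± 43.1 CPM (adjusted p = 9.3e-10), and Etv5, a factor of IL-17-producing gamma-delta cells, by 0.96 (adjusted p = 8.8e-06). Cd163l1, named here after its values had been seen, rose by 2.34, from 8.70 ± 0.93 to 44.3 ± 38.8 CPM (adjusted p = 0.00013), and by 1.72 without BC CML replicate 2. For these 5 genes the BC CML mice all lay above the CP CML range, as for 19.3% of all tested genes, while Blk, Sox4 and Id3 overlapped. The summed level of the 8 genes was 66.1 to 91.2 CPM in CP CML and 381 to 562 CPM in BC CML.

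Of 23 NKT and MAIT cell genes, 4 receptor gene segments were not analysed here. All other 19 were tested, and 12 rose and 3 fell (all tested genes, 32.6% and 32.7%), with a median of 0.85. The 4 with the lowest p-values all rose: Ly6c2, a memory and effector T cell and monocyte surface protein, by 2.22 (edgeR, adjusted p = 1.7e-13), Id2, a factor of innate and effector lymphocytes, by 1.34 (adjusted p = 1.0e-12), Il12rb2, given above, and Xcl1, a chemokine of CD8 T and NK cells, by 2.39 (adjusted p = 6.8e-10). Klrb1c, which encodes NK1.1, rose from 49.7 ± 6.69 to 146 ± 40.8 CPM (log2 fold change 1.56, adjusted p = 5.7e-07). These leading genes are also genes of effector CD8 T cells and NK cells. The 3 that fell, named here after their values had been seen, were Slamf6, a surface receptor used in NKT cell selection, by 1.00 (adjusted p = 9.4e-09), Il18rap, given above, and Egr2, a factor of early NKT cells, by 0.39 (adjusted p = 0.0432). Of the 37 partner, target and relative genes of the 9, among them those described above, 29 were tested, and 16 rose and 5 fell (all tested genes, 32.6% and 32.7%), with a median of 0.27.

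**Figure D4:**
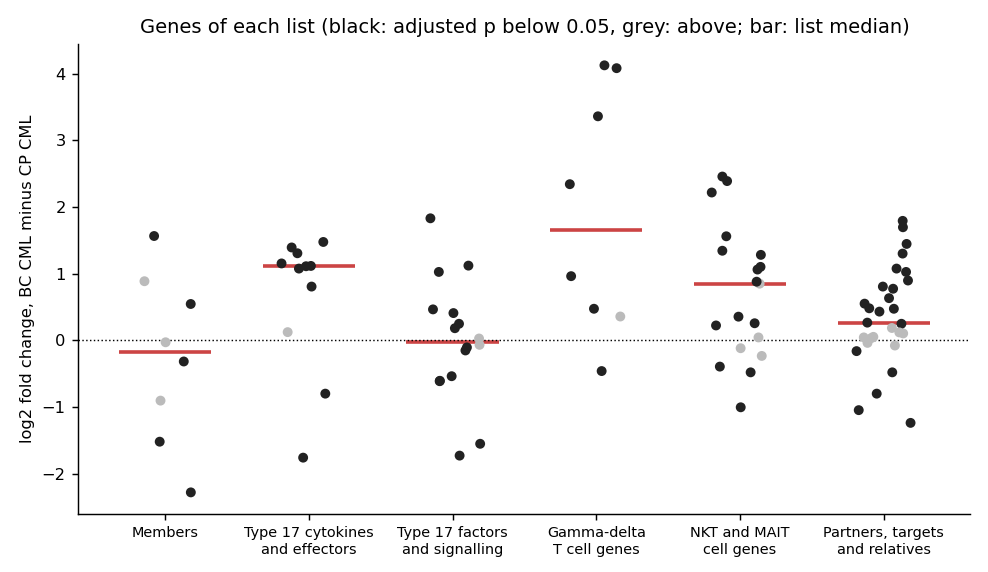
Log2 fold change of BC CML against CP CML (vertical axis) for the tested genes of 6 lists, 1 point per gene, black where the adjusted p is below 0.05 and grey elsewhere, with the list median as a red bar. The medians are −0.17 for the 9 genes followed here, 1.11 for type 17 cytokines and effectors, −0.02 for type 17 factors and signalling, 1.65 for gamma-delta genes, 0.85 for NKT and MAIT genes and 0.27 for partners, targets and relatives.

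Markers of other cells moved with the groups. In BC CML 10 of 11 B cell genes, 10 of 13 macrophage and monocyte genes, 10 of 10 neutrophil genes and 11 of 12 NK and innate lymphoid cell genes rose, with medians of 1.58, 1.16, 2.29 and 1.64, where 32.6% of all tested genes were called higher. Nearer to that share, 3 of 6 dendritic cell genes rose and none fell, 3 of 8 basophil and mast cell genes rose and 1 fell, and 2 of 6 erythroid and megakaryocyte genes rose and 1 fell. Their summed level was higher in every BC CML mouse than in every CP CML mouse for macrophages (262 to 396 CPM in CP CML, 755 to 1166 in BC CML), neutrophils (7.92 to 593 and 640 to 1882), dendritic cells (31.6 to 45.3 and 56.0 to 146) and basophils and mast cells (9.68 to 20.9 and 24.6 to 64.3), and overlapped for B cells and for the NK list (1314 to 1845 and 1318 to 1889). Among defining markers, Cd79a of B cells rose by 1.73 (edgeR, adjusted p = 0.0024), S100a8 of neutrophils by 2.10 (adjusted p = 0.0121) and Ncr1 of NK cells by 2.01 (adjusted p = 3.4e-05), while Csf1r of macrophages (log2 fold change 0.38, adjusted p = 0.20) and Mcpt8 of basophils (0.27, adjusted p = 0.662) did not pass. Of the 3 dendritic cell genes that rose, Itgax rose most, by 2.74 (edgeR, adjusted p = 4.8e-07), and it weighs most in their sum. Macrophages and dendritic cells also express Ahr and Maf. The part of other cells in the values of the 9 genes was not tested.

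Within the T cells, 7 of 8 naive T cell genes fell and 1 rose (all tested genes, 32.7% and 32.6%), with a median of −0.69, and their summed level was 5729 to 7157 CPM in CP CML and 3517 to 4913 in BC CML. The 1 gene called higher went to 0 without CP CML replicate 3 or BC CML replicate 3, 5 or 6. Of 14 T cell identity genes 6 rose and 2 fell, 57.1% in all beside 65.2% of all tested genes, with a summed level of 5584 to 6437 CPM in CP CML and 7002 to 7607 in BC CML. The changes of the 9 genes thus stood in libraries whose summed level of naive T cell genes also differed between the groups. The part of naive T cells in these changes was not tested.

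**Figure D5:**
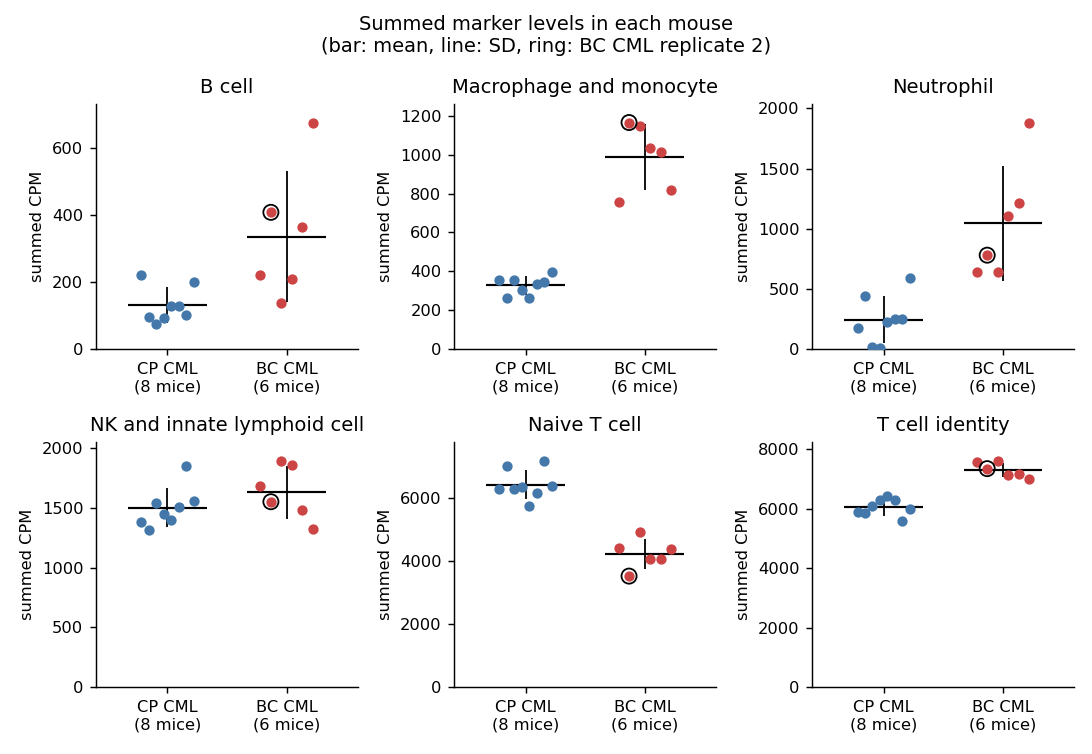
Summed CPM of 6 marker lists in every mouse (vertical axes start at 0), with CP CML on the left and BC CML on the right, the group mean as a bar, the SD as a line and BC CML replicate 2 ringed. Macrophage, neutrophil, naive T cell and T cell identity sums are apart between the groups, and B cell and NK sums overlap. The macrophage sum includes Ly6c2, also of the NKT list, and the NK sum includes Il7r, also of the naive T cell list.

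The genes whose level varied most like each of the 8 tested genes within the groups were looked up as a description, by Pearson's r of log2 CPM over the 14 mice after the group means were subtracted, among about 9160 genes of at least 3 log2 CPM on average. The points share their library and its depth, and the highest of so many correlations are high in part by choice. For Ccr6 they were Fabp5 (r = 0.93), Tnfrsf13c (r = 0.90), the receptor for the B cell survival factor BAFF, and C3 (r = 0.90). For Maf they were Nqo2 (r = 0.91), Fam53c (r = 0.90) and Lamc1 (r = 0.89). For Ahr they were Furin (r = 0.84), Jchain (r = 0.83), a gene of antibody-secreting cells, and Enpp5 (r = 0.83).

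Il18r1 varied like Adam19 (r = 0.83) and Hspbap1 (r = 0.83), and Rora most like Spcs3 (r = 0.82), Mgat5 (r = 0.80) and Runx2 (r = 0.80). For Zbtb16, Sox13 and Il23r, in which BC CML replicate 2 stands out, likeness was lower in each pair without that mouse. Zbtb16 with 5830417I10Rik went from r = 0.89 to 0.44 without it, and Sox13 with Cd163l1 from 0.85 to 0.48. Elmo2 with Zbtb16 went from 0.86 to 0.65, and Cd163l1 with Il23r from 0.78 to 0.57. Trak1 (0.78 to 0.59) and Ccr2 (0.76 to 0.56) with Sox13 changed by a like amount. Without that mouse r stayed highest for Mavs with Zbtb16 (0.93 to 0.71) and for Rtn4 (0.81 to 0.68) and Ahr (0.80 to 0.72) with Il23r. Ahr thus varied like Il23r among mice of a group, while between the groups their fold changes had opposite signs.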

How the data were processed

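RNA was sequenced from sorted spleen T cells of 14 mice (paired reads of 101 bases). The authors cut adapters (Trimmomatic) and polyA tails (FASTP), aligned to mm10 with STAR 2.6.0, counted with HTSeq 0.11.1 and deposited raw counts per gene without normalization, with gene positions and lengths (versions from the submitters' processing notes). The annotation and strand setting are not given in the sources used here, and Rora, Maf and Ahr each overlap a gene on the other strand in GENCODE vM21 (Gm15511, Gm15655 and Gm48236), so reads of these pairs cannot be told apart.

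Counts were filtered with filterByExpr (minimum count 10), normalized by TMM and tested with edgeR 4.0.16 in R 4.3.3 (quasi-likelihood, robust, no covariate, Benjamini-Hochberg over 12248 genes, threshold 0.05). SE was computed from the fold change and F statistic. Il17a failed the filter and was tested by exact permutation of its CPM. RPKM was computed as CPM over the deposited length. On simulated counts (12133 genes, 200 of them with a log2 change of 1) this test found 188 of the changed genes and made 9 other calls. Alternatives were the likelihood ratio test of the study's methods, DESeq2 1.42.0, other scalings and filters, a replicate block and leaving out each mouse.

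The members and lists were chosen with earlier results of these data known. Named genes were the members, the 4 of each type 17, gamma-delta and NKT list with the lowest p-values, defining markers, partners, relatives and targets, and the 3 genes most like each member. Within groups, library pairs differed by a chi-square per degree of freedom of 3.09 to 22.8, so none was counted as a repeat. P-values measure the spread between mice. Counting floors cover counting error only. Receptor locus genes (Trac, Trdc and the Tcrg genes among them) were not analysed here, and some genes that the rule names are not reported here.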

Additional observations from a re-analysis of the deposited data

Results flagged for a closer look

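In 46 groups of values scanned (each of the 9 genes and each list sum in each group of mice), 5 had a mouse whose gap to the nearest other mouse was large for that group's range. About 2.3 would be expected by chance for independent and normally distributed values. The values scanned share libraries, some lists share genes and some genes had few reads, so that number is only a rough guide. In 4 of the 5 the mouse apart was BC CML replicate 2, as the highest of 6, with 4.238 CPM of Zbtb16, 7.292 CPM of Sox13, 2.181 CPM of Il23r and 1.309 CPM of Il17a. Zbtb16 remained below every CP CML mouse and Il17a above every CP CML mouse in that library, while Il23r lay within the CP CML range and Sox13 above it. The other was CP CML replicate 7, with the highest summed level of NK and innate lymphoid cell genes of its group (1845 CPM, others 1314 to 1557). This list holds Il7r, also a naive T cell gene, and that mouse had the highest naive T cell sum of its group as well (7157 CPM). The cause was not tested in either mouse.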

How the results depend on the processing

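The 5 calls among the 8 tested genes (Zbtb16, Ccr6 and Il18r1 lower, Ahr and Maf higher) kept their direction and side of the threshold under all 7 alternatives and all 14 left-out mice, and Rora stayed uncalled in each. Il23r was called by the likelihood ratio test (adjusted p = 0.0404) and DESeq2 (adjusted p = 0.0486), with a range of 0.0404 to 0.158 over the alternatives. Il17a differed by 0.360 CPM under library size alone and by 0.177 to 0.419 with a mouse left out. All genes called numbered 7280 to 8719 under the alternatives and 7721 to 7966 with a mouse left out, beside 7986. Replicate numbers did not pair the mice (r of same-numbered mice −0.273 to 0.356, 2 of 6 over 0.1). With the replicate block, which drops CP CML replicates 7 and 8, 7280 genes were called, the members called numbered 2 higher and 3 lower, naive T cell genes called higher went from 1 to 0, and Sox4 (adjusted p = 0.0881), Maff (adjusted p = 0.0666) and Mafk (adjusted p = 0.0764) did not pass. Erythroid and megakaryocyte genes called higher (2) were 4 with no filter and 1 with more than 1 CPM in at least 6 samples. With a mouse left out, naive T cell genes called higher ranged from 0 to 1, basophil and mast cell genes called higher from 2 to 5 (3 with all mice) and lower from 1 to 2. The log2 fold change of Cd3e (0.02 with all mice) ranged from −0.0012, without CP CML replicate 7, to 0.0352, and that of Mcpt8 (0.27) from −0.46, without BC CML replicate 6, to 0.46, none past the threshold. The cause of these shifts was not tested. Depth limits Il17a, Il17f and Il22, at 0 to 26 reads per library.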
